A study of Mus musculus with 16 samples.

Results

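TRAV6 is a family of variable segments of the T cell receptor alpha chain. Its chains were taken as productive, high-confidence alpha (TRA) contigs of called cells whose V name begins TRAV6, TRAV6D or TRAV6N, and each cell was assigned by its TRA chain with the most unique molecular identifiers (UMIs). The rule found 586 cells among 4935 cells with a TRA chain, in a data set of 5908 cells, and it gave 7 members, TRAV6-1 to TRAV6-7. Counted as clonotypes, that is, cells of a library alike in V, J and CDR3 nucleotides for both chains, TRAV6 made up 381 of 3320. Cells without a beta (TRB) chain were grouped by the TRA chain alone and counted as clonotypes of their own. Of the 381 TRAV6 clonotypes, 363 had both chains.

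The cells were tumour-infiltrating cells from mouse liver tumours that arose from Hepa1-6 cells, a hepatoma line of mouse, injected into the liver of C57BL/6 mice. There were 2 TCR libraries each of day 14 KO, day 14 CON, day 5 KO and day 5 CON, the day being the time after the injection of tumour cells. KO mice were CD4creMatr3fl/fl and CON mice CD4creMatr3WT/WT, so Cre recombinase under the Cd4 promoter, which is active in thymocytes that go on to become CD4 or CD8 T cells, was present in both groups. Matrin 3, the product of Matr3, is a protein of the nuclear matrix with binding domains for RNA and DNA. The receptor tables hold no other transcript, so the loss of Matr3 and the identity of the cells beyond their receptor were not checked here. The labels do not say whether libraries came from separate mice, so p-values measure the spread between libraries, which may be technical.

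An alpha chain is made in the thymus by joining a V to a J segment of the TRA locus. Joining starts between the V and J segments that lie nearest each other, and a cell can replace a join by a further one that uses a V segment farther upstream and a J segment farther downstream. Many mouse V segments exist in several copies because a stretch of the locus was duplicated, and the letters D and N in a name mark such copies. The V segment encodes CDR1 and CDR2, loops that often face the MHC molecule, and the start of CDR3, the loop made at the join. Both alleles can rearrange productively, so a T cell can hold a pair of alpha chains with 1 beta chain.

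The copies are the first feature of the family, since they differ in position and in the J segments they were found with. Those of TRAV6-4, TRAV6-6 and TRAV6-7 also differ in CDR1, while those of TRAV6-3 and of TRAV6-5 have the same CDR1. RefSeq (build GRCm38.p6) places the 15 TRAV6 segments on chromosome 14, from TRAV6-1 at chr14:52638515-52638962, at the upstream end, to TRAV6-7-DV9 at chr14:53709943-53710419, which lies 446.9 kb from TRAJ58. The suffix DV marks a V segment that delta chains can use as well. TRAV6N-7 (chr14:53318818-53319284) lies 838.0 kb from TRAJ58, TRAV6-6 (chr14:53516929-53517366) 639.9 kb and TRAV6N-6 (chr14:53132700-53133137) 1024 kb. TRAJ numbers fall along the locus, so that TRAJ58 is close to the V segments and TRAJ2 is far from them. The CDR1 nucleotides read from the contigs are shown for the copies that the results turn on, 5′ to 3′, with capitals where the 2 copies shown of a member differ.
TRAV6-7-DV9 CDR1: gcctcagggtacccaAcC
TRAV6N-7 CDR1: gcctcagggtacccaGcT
TRAV6-6 CDR1: gccacaagcatagCttaccctaat
TRAV6N-6 CDR1: gccacaagcatagGttaccctaat
TRAV6-4 CDR1: accacaacAtacccaact
TRAV6D-4 CDR1: accacaacGtacccaact
Over the V region up to CDR3, TRAV6-7-DV9 and TRAV6N-7 differed at 5 of 267 bases, TRAV6-6 and TRAV6N-6 at 5 of 273, and TRAV6-4 and TRAV6D-4 at 7 of 267. TRAV6-3 and TRAV6D-3 had the same V bases up to CDR3, and so did TRAV6-5 and TRAV6N-5. The commonest start of CDR3 was also the same for TRAV6-3 and TRAV6D-3, so those names are uncertain between copies. For TRAV6-5 and TRAV6N-5 it differed. The commonest start was seen in 41 of 44 TRAV6-5 contigs and 11 of 12 TRAV6N-5 contigs, so these names rest on the start of CDR3 alone. In each of the 45 clonotypes with 2 or more TRAV6 cells all cells had 1 copy name. TRAV6D-6 and TRAV6D-7 were named as the highest productive chain of 0 of the 4935 cells, which allows a share of up to 0.0608% for each name. Without productive contigs their V bases were not compared. Whether chains named TRAV6-6, TRAV6N-6, TRAV6-7-DV9 or TRAV6N-7 can be told apart from them was not checked.

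Depth set what could be seen. A library held 388 to 1236 cells with a TRA chain, and 28 to 190 of these were TRAV6 cells. The median TRA chain had 3 to 6 UMIs in TRAV6 cells and 3 to 5 in the other cells of a library. Between 1.33% and 3.92% of the cells of a library were possible doublets. Of 5887 distinct barcodes, 21 occurred in more than 1 library, and 0 of these carried the same TRA chain in both. Intervals below are exact binomial 95% intervals, and the share that a count of 0 allows is 3 counts of the total unless an exact limit is named; both cover counting error only.

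TRAV6 took up overlapping parts of the repertoire in KO and CON tumours. At day 14 it was 9.56% and 13.1% of TRA cells in the KO libraries, against 15.4% and 11.9% in the CON libraries. At day 5 it was 12.1% and 7.22% in the KO libraries, against 9.29% and 10.2% in the CON libraries. Within each day the values of the genotypes overlapped. The difference, KO minus CON, was -2.28 percentage points at day 14 and -0.11 points at day 5, beside a standard deviation within groups of 2.49 points.

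Between the days the share depended on what it was a share of. Over the 4 libraries of a day it averaged 12.5% ± 2.43 (SD) of TRA cells at day 14, against 9.71% ± 2.03 at day 5, and the ranges overlapped. Cells with TRAV11 joined to TRAJ18, the alpha chain of invariant natural killer T (iNKT) cells, were 4.0% ± 1.23 of TRA cells in the day 14 libraries and 28.8% ± 2.10 in the day 5 libraries. Without these iNKT-type cells TRAV6 averaged 13% ± 2.52 at day 14 and 13.6% ± 2.80 at day 5. Counting cells with any productive TRAV6 chain gave 10.8%, 21.5%, 18.2% and 22.8% in the day 14 libraries (KO 1, KO 2, CON 1, CON 2) and 12.8%, 8.76%, 10.8% and 11.4% in the day 5 libraries in the same order. With each clonotype counted once, TRAV6 averaged 13.1% ± 1.57 at day 14 and 9.78% ± 1.90 at day 5. The total of clonotypes kept the iNKT-type ones. These values therefore compare with the shares of all TRA cells, not with those without iNKT-type cells.

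The 7 members contributed unequally. TRAV6-6 was the most frequent with 238 cells in 145 clonotypes, and TRAV6-7 followed with 144 cells in 118 clonotypes. TRAV6-4 had 100 cells in 30 clonotypes, or 3.33 cells for each clonotype, against 1.54 over the family. TRAV6-5 had 59 cells in 49 clonotypes. TRAV6-1, TRAV6-2 and TRAV6-3 had 13, 18 and 14 cells, too few for the test, which took segments with 40 or more cells.

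Use of each V and J segment was tested with edgeR's quasi-likelihood test on all 98 segments with 40 or more cells, with Benjamini-Hochberg adjustment over them and a threshold of 0.05. Of the 98 segments, 10.2% passed for day 14 against day 5, and 0% passed in each of the genotype contrasts. Of the 4 TRAV6 members tested, 0 passed in any of the 5 contrasts by edgeR or by DESeq2, and 0 had an unadjusted p below 0.05 by either tool. At unadjusted p below 0.05 edgeR gave 11 of the 98 segments for KO against CON at day 14, 0 at day 5, 5 over both days and 4 for the interaction of genotype with day. DESeq2 called 0 segments in these 4 contrasts. The median log2 fold change of the 4 members was 0.43 for day 14 against day 5, beside 0.05 over all 98 segments. Without iNKT-type cells these medians were 0.007 and -0.27, and 2 segments passed between days in place of 10.

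**Figure D1:**
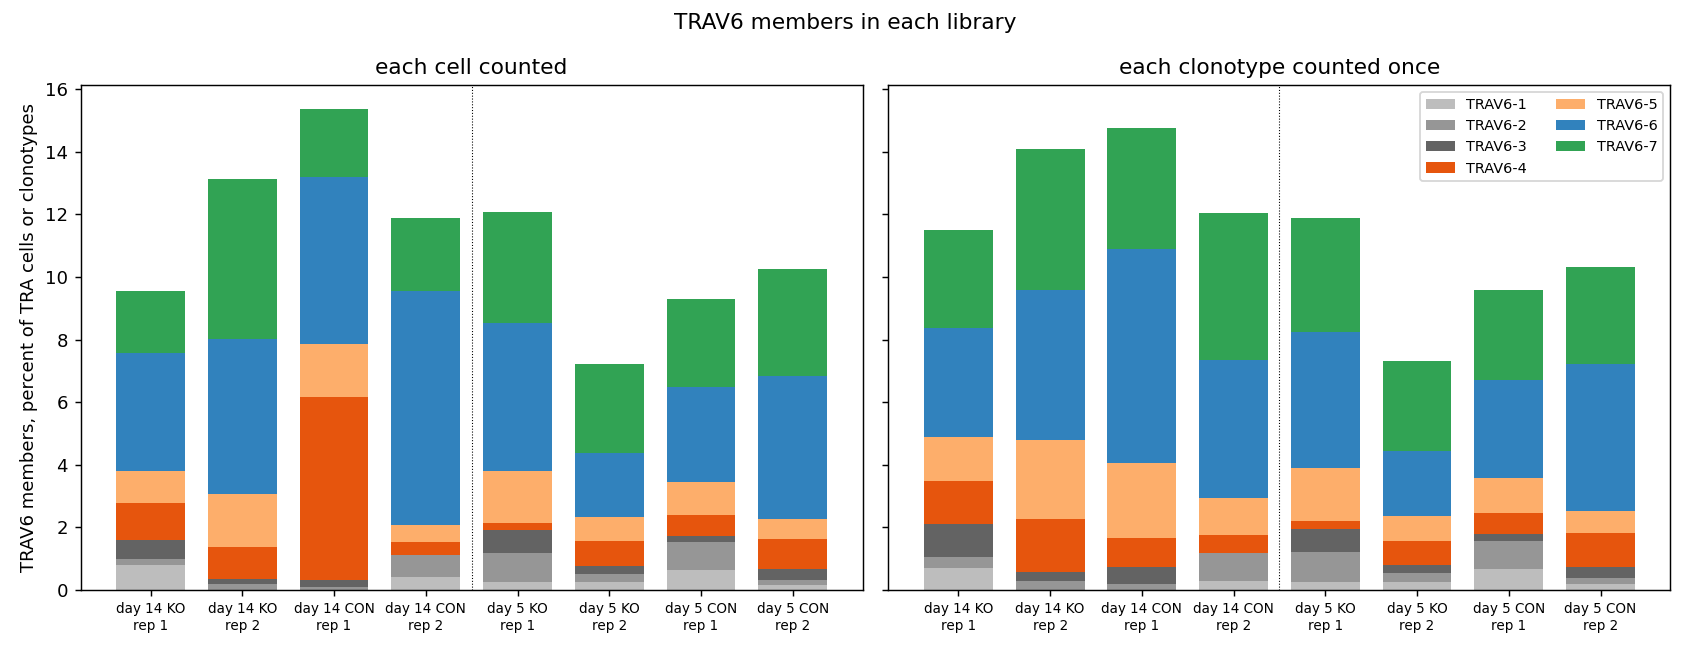
TRAV6 members as a percentage of TRA cells (left) and of TRA clonotypes, each counted once (right), stacked for each of the 8 libraries. TRAV6-4 reached 5.83% of cells in day 14 CON replicate 1 and 0.92% of its clonotypes, while TRAV6-6 and TRAV6-7 made up most of the other bars.

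TRAV6-4 gave the largest fold change of the members. It was 1.20% and 1.02% of TRA cells in the day 14 KO libraries, 5.83% and 0.41% in the day 14 CON libraries, 0.24% and 0.77% in the day 5 KO libraries, and 0.65% and 0.98% in the day 5 CON libraries. A single CON library stood far above the rest. Among the others the days overlapped, and so did the genotypes at day 5. At day 14 both KO libraries lay above the remaining CON library. The log2 fold change for day 14 against day 5 was 1.63 (SE 0.78, edgeR adjusted p 0.237), and without day 14 CON replicate 1 it was 0.26. It passed the threshold without day 14 CON replicate 2 (log2 fold change 2.09, adjusted p 0.0496). For KO against CON at day 14 it was -1.52 (SE 1.00, adjusted p 0.579), which became 1.37 without day 14 CON replicate 1.

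TRAV6-6 was 3.78% and 4.95% of TRA cells in the day 14 KO libraries, 5.34% and 7.47% in the day 14 CON libraries, 4.74% and 2.06% in the day 5 KO libraries, and 3.02% and 4.55% in the day 5 CON libraries. By the highest chain of each cell, both day 14 CON libraries lay above all others. With every productive chain counted the genotypes overlapped, at 4.58% and 12.5% in the day 14 KO libraries and 5.91% and 18.1% in the day 14 CON libraries. The log2 fold change was 0.56 for day 14 against day 5 (SE 0.35, edgeR adjusted p 0.417; 1.25, adjusted p 0.107, with every productive chain) and -0.54 for KO against CON at day 14 (SE 0.50, adjusted p 0.624). At day 5 it was -0.16 (SE 0.53, adjusted p 0.979).

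TRAV6-7 was 1.99% and 5.12% of TRA cells in the day 14 KO libraries, 2.18% and 2.35% in the day 14 CON libraries, 3.55% and 2.84% in the day 5 KO libraries, and 2.81% and 3.41% in the day 5 CON libraries. The 2 extremes were both day 14 KO libraries. Its log2 fold change was -0.15 for day 14 against day 5 (SE 0.39, edgeR adjusted p 0.887), 0.66 for KO against CON at day 14 (SE 0.56, adjusted p 0.624) and 0.04 at day 5 (SE 0.58, adjusted p 0.979). TRAV6-5 lay between 0.55% and 1.71% in all libraries, and its log2 fold change was 0.30 for day 14 against day 5 (SE 0.51, adjusted p 0.782), 0.22 for KO against CON at day 14 (SE 0.71, adjusted p 0.856) and 0.52 at day 5 (SE 0.81, adjusted p 0.979). TRAV6-4 at day 5 gave -0.70 (SE 1.31, adjusted p 0.979).

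The 3 rarest members stayed below 1% of TRA cells in every library. TRAV6-1 ranged from 0 cells in day 14 KO replicate 2 and day 14 CON replicate 1, which allows a share of up to 0.512% and 0.243%, to 0.80% in day 14 KO replicate 1. TRAV6-2 ranged between 0.08% and 0.95%. TRAV6-3 was found in 14 cells that were all separate clonotypes, and it was in 0 of the 723 TRA cells of day 14 CON replicate 2, which allows up to 0.415%.

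In the share of each library, the profile of TRAV6 over the 8 libraries was most like those of TRAV8-1, TRAV3-3 and TRAV16. The root mean square difference of log2 shares, each divided by its mean over libraries, was 0.36, 0.37 and 0.38, the smallest of 28 TRAV segments compared. This is a description over 8 libraries that share their denominators.

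Pooled over the libraries of a day, the J-near copies of TRAV6-4, TRAV6-6 and TRAV6-7 made up a larger part of their member's clonotypes at day 14 than at day 5. TRAV6N-7 was 51.6% of 62 TRAV6-7 clonotypes at day 14 (interval 38.6% to 64.5%) and 71.4% of 56 at day 5 (57.8% to 82.7%). TRAV6N-6 was 16.5% of 79 TRAV6-6 clonotypes at day 14 (9.06% to 26.5%) and 34.8% of 66 at day 5 (23.5% to 47.6%). TRAV6D-4 was 4 of 17 TRAV6-4 clonotypes at day 14 and 8 of 13 at day 5. By library, the days were apart for the J-near copy TRAV6-6, at 80% or more at day 14 and up to 78.6% at day 5. They overlapped for TRAV6-7-DV9, with 25% in day 14 CON replicate 2 and 45.5% in day 5 KO replicate 2. They also overlapped for the TRAV6-4 copy, with 50% in day 14 KO replicate 1 and 66.7% in day 5 CON replicate 1. TRAV6-3 and TRAV6-5 have a J-near copy with the V bases of another copy up to CDR3. The TRAV6-3 names are uncertain in this respect, and the TRAV6-5 names rest on the start of CDR3. The J-near name was 4 of 7 TRAV6-3 clonotypes at day 14 and 6 of 7 at day 5. For TRAV6-5 it was 63.3% of 30 clonotypes at day 14 and 63.2% of 19 at day 5, without a rise.

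In TRAV6-4, TRAV6-6 and TRAV6-7 the J-near copy can be told apart from the other copy named here by V bases up to CDR3. Over these members, the J-near copies TRAV6-4, TRAV6-6 and TRAV6-7-DV9 were 65.2% and 76.9% of clonotypes in the day 14 KO libraries. In the day 14 CON libraries they were 73.0% and 54.5%. They were 44.1% and 50% in the day 5 KO libraries and 53.3% and 44.9% in the day 5 CON libraries. Every day 14 library lay above every day 5 library, with the lowest at day 14, 54.5%, close to the highest at day 5, 53.3%. The mean of the day 14 libraries was 67.4% ± 9.87 and that of the day 5 libraries 48.1% ± 4.36 (SD, n = 4 each). TRAV6-5 was not included, and its J-near name took 63.3% of its clonotypes at day 14 and 63.2% at day 5. TRAV6D-5, which can also be told apart by V bases, was 20% of TRAV6-5 clonotypes at day 14 and 15.8% at day 5. The pattern was seen in these libraries before it was summarised, so no p is given for it.

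**Figure D2:**
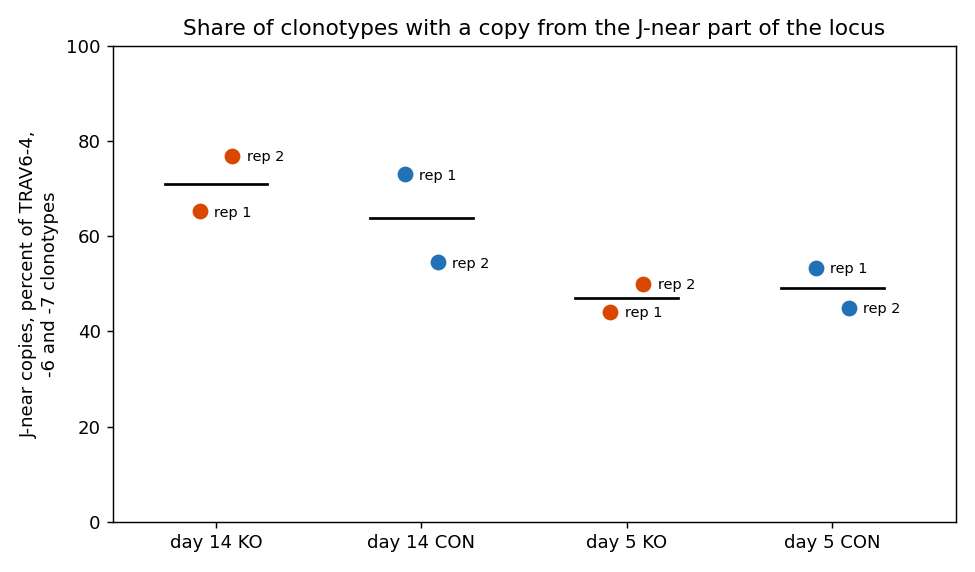
Percentage of TRAV6-4, TRAV6-6 and TRAV6-7 clonotypes that carried the copy from the J-near part of the locus, 1 point for each library, with KO in orange and CON in blue and a bar at the mean of each group. The 4 day 14 libraries lie between 54.5% and 76.9% and the 4 day 5 libraries between 44.1% and 53.3%.

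When the copies were fitted as separate segments, 112 segments were tested for day 14 against day 5 and 8.04% passed. Of the 5 TRAV6 copies with 40 or more cells, 0 passed by edgeR's quasi-likelihood test. The log2 fold change was 3.04 for TRAV6-4 (SE 0.95, adjusted p 0.0924), 1.02 for TRAV6-6 (SE 0.34, adjusted p 0.0966) and 0.91 for TRAV6-7-DV9 (SE 0.56, adjusted p 0.459). Of the 82 day 14 cells with the TRAV6-4 copy, 68 belonged to 1 clone of day 14 CON replicate 1. TRAV6N-6 had -1.17 (SE 0.61, adjusted p 0.352) and TRAV6N-7 -0.88 (SE 0.44, adjusted p 0.326).

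The TRAJ partners of a member split by copy. Of 46 TRAV6-7-DV9 clonotypes, 31 used TRAJ40 or a higher number, the part of the J cluster close to the V segments (67.4%, interval 52.0% to 80.5%), and 0 used TRAJ21 or lower (exact upper limit 7.71%). Of 72 TRAV6N-7 clonotypes, 3 used TRAJ40 or higher (4.17%, 0.87% to 11.7%) and 26 used TRAJ21 or lower (36.1%, 25.1% to 48.3%). The median TRAJ number was 48.5 for TRAV6-7-DV9 and 23.5 for TRAV6N-7. These V segments differ by 5 bases over the compared region. TRAV6N-7 lies upstream of TRAV6-3 to TRAV6-6, and TRAV6-7-DV9 lies downstream of them.

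The split was seen in the libraries one by one, although the numbers are small. TRAJ40 or higher was found in 4 of 4, 7 of 10, 8 of 12 and 3 of 4 TRAV6-7-DV9 clonotypes of day 14 KO 1, KO 2, CON 1 and CON 2. The same libraries had it in 0 of 5, 0 of 6, 0 of 9 and 1 of 12 TRAV6N-7 clonotypes. At day 5, in the same order, it was found in 3 of 5, 4 of 5, 1 of 3 and 1 of 3 TRAV6-7-DV9 clonotypes and in 0 of 10, 1 of 6, 0 of 10 and 1 of 14 TRAV6N-7 clonotypes. In all 8 libraries the share was higher for TRAV6-7-DV9.

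TRAV6-6 and its copy showed the same order at a smaller size. Of 109 TRAV6-6 clonotypes, 26 used TRAJ40 or higher (23.9%, 16.2% to 33.0%), and of 36 TRAV6N-6 clonotypes 2 did (5.56%, 0.68% to 18.7%). TRAJ21 or lower was used by 26 TRAV6-6 clonotypes (23.9%) and 15 TRAV6N-6 clonotypes (41.7%, 25.5% to 59.2%). Distance did not order all copies. TRAV6D-5, which lies upstream of TRAV6N-7, had TRAJ40 or higher in 6 of 9 clonotypes (66.7%, 29.9% to 92.5%), and TRAV6-4, nearer the J segments than TRAV6N-7, in 1 of 18 (5.56%, 0.14% to 27.3%).

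**Figure D3:**
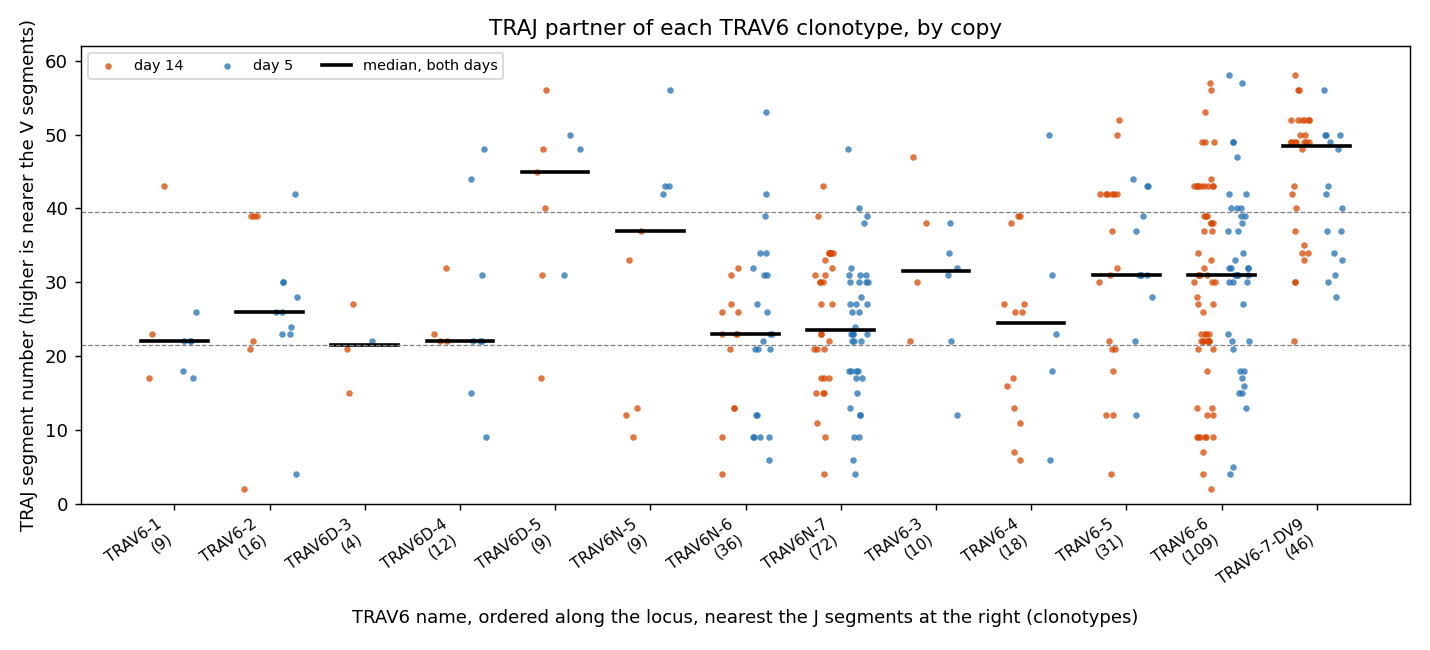
TRAJ number of every TRAV6 clonotype (points, day 14 in orange and day 5 in blue) for each copy, ordered along the locus with the copy nearest the J segments at the right; black bars are medians and dashed lines mark the limits below TRAJ40 and above TRAJ21. TRAV6-7-DV9 has a median of 48.5 and no point under the lower line, and TRAV6N-7 has a median of 23.5 and 3 points above the upper line.

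Summed over the family, TRAV6 clonotypes were close to the others in TRAJ use. TRAJ40 or higher was used by 23.4% of TRAV6 clonotypes and 25.1% of the other clonotypes without iNKT-type chains, and TRAJ21 or lower by 25.5% and 26.4%. The partners used by most TRAV6 clonotypes were TRAJ22 (30 clonotypes), TRAJ31 (28) and TRAJ23 (21). TRAV6-6 was joined most often to TRAJ31 (12 of 145), TRAJ22 (11) and TRAJ9 (11), and TRAV6-7 to TRAJ30 (10 of 118), TRAJ34 (9) and TRAJ49 (8).

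On the beta chain, TRAV6 clonotypes were paired most often with TRBV3 (37 of 363 paired clonotypes), the joint name TRBV12-2+TRBV13-2 (36) and TRBV13-1 (32). TRAV6-6 was found most with TRBV13-1 (15 of 143), TRBV16 (15) and TRBV5 (13). TRAV6-7 was found most with TRBV12-2+TRBV13-2 (15 of 108), TRBV19 (13) and TRBV13-1 (9). TRBV19 was in 12.0% of TRAV6-7 clonotypes (interval 6.57% to 19.7%), in 5.10% of the other TRAV6 clonotypes (2.74% to 8.56%) and in 6.35% of clonotypes outside the family (5.37% to 7.46%). Of the 13 TRAV6-7 clonotypes with TRBV19, 11 carried TRAV6N-7, and each of the 8 libraries held at least 1 of these. Each day 14 library held 1, which was the TRAV6N-7/TRAJ34 chain with TRBV19/TRBJ1-3 described with the shared receptors. The libraries are therefore not separate pairings. The TRBV19 intervals overlap and the pair was singled out after its counts were seen.

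Whether TRAV6 chains differ from the other TRA chains was asked within each library for 8 measures, with a two-sided exact sign-flip permutation test over the 8 libraries. The smallest p this test can give is 0.00781, and a lone measure at that p has an adjusted p of 0.0625, so that 1 measure alone cannot pass 0.05. After Benjamini-Hochberg adjustment over the 8 measures 0 passed, and 3 had an unadjusted p below 0.05. Over clonotypes, TRAV6 CDR3 loops averaged 13.8 ± 0.13 residues against 13.6 ± 0.12 for the others (SD, n = 8 libraries). They were longer in 8 of 8 libraries (exact p 0.00781, adjusted p 0.0625). With the iNKT-type chains kept among the others, which have a fixed CDR3 length, the difference of 0.28 residues became -0.02. With cells in place of clonotypes it was 0.13 residues (adjusted p 0.402, same permutation test).

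The TRBV13 group, also known as Vbeta8, was counted as TRBV13-1, TRBV13-2, TRBV13-3 and the joint name TRBV12-2+TRBV13-2. These segments were in 23.9% ± 3.11 of paired TRAV6 clonotypes and 20.2% ± 3.0 of the others (SD, n = 8 libraries), higher in 7 of 8 libraries (exact p 0.0156, adjusted p 0.0625). Pooled over libraries, TRAV6 minus others was 3.37 points for TRBV13-1 and 2.47 for the joint name. It was -1.45 for TRBV13-3 and -0.35 for TRBV13-2. iNKT cells often use segments of the TRBV13 group, and with iNKT-type cells among the others the group's difference of 3.73 points became -7.21 points. The mean TRA chain had 5.35 ± 0.99 UMIs in TRAV6 cells and 5.97 ± 0.87 in the others, lower in 6 of 8 libraries (exact p 0.0312, adjusted p 0.0833). Jbeta2 segments were in 69.0% ± 3.75 of TRAV6 clonotypes and 68.7% ± 1.44 of the others (exact p 0.695, adjusted p 0.711). The shares with TRAJ40 or higher (exact p 0.711, adjusted p 0.711) and TRAJ21 or lower (exact p 0.609, adjusted p 0.711) differed by -1.34 and -1.86 points, TRAV6 minus others.

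Many TRAV6 cells belonged to expanded clones at day 14, and few did at day 5. The share of paired TRAV6 cells in clonotypes of 2 or more cells was 46.7% and 46.7% in the day 14 KO libraries, 68.3% and 65.1% in the day 14 CON libraries, 5.88% and 0% in the day 5 KO libraries and 0% and 17.5% in the day 5 CON libraries. The values of 0% are for 26 and 43 cells, which allows up to 11.5% and 6.98%. Day 14 lay above day 5 throughout, and within day 14 both CON libraries lay above both KO libraries. The libraries held 502, 586, 1236, 723, 422, 388, 463 and 615 TRA cells in this order. The share in clonotypes of 2 or more cells depends on the number of cells sampled, and the order of the groups at equal depth was not tested. The other TRA cells had 58.3%, 54.1%, 67.3%, 67.8%, 4.15%, 3.83%, 7.35% and 17.6% in the same order, so the order of the groups was the same outside the family. Within libraries TRAV6 was lower by 3.79 points on average and higher in 2 of 8 (exact p 0.0625, adjusted p 0.125). The difference was -8.13 points (adjusted p 0.0625) without the largest TRAV6 TRB clonotypes, a setting chosen after seeing the data, and -1.65 points with iNKT-type cells kept among the others (adjusted p 0.402, both by the exact permutation test). Clonotypes of 10 or more cells made up 25.8% ± 5.03 of paired TRAV6 cells at day 14 in KO and 42.7% ± 2.46 in CON (SD, n = 2 each), and 0 were seen at day 5.

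**Figure D4:**
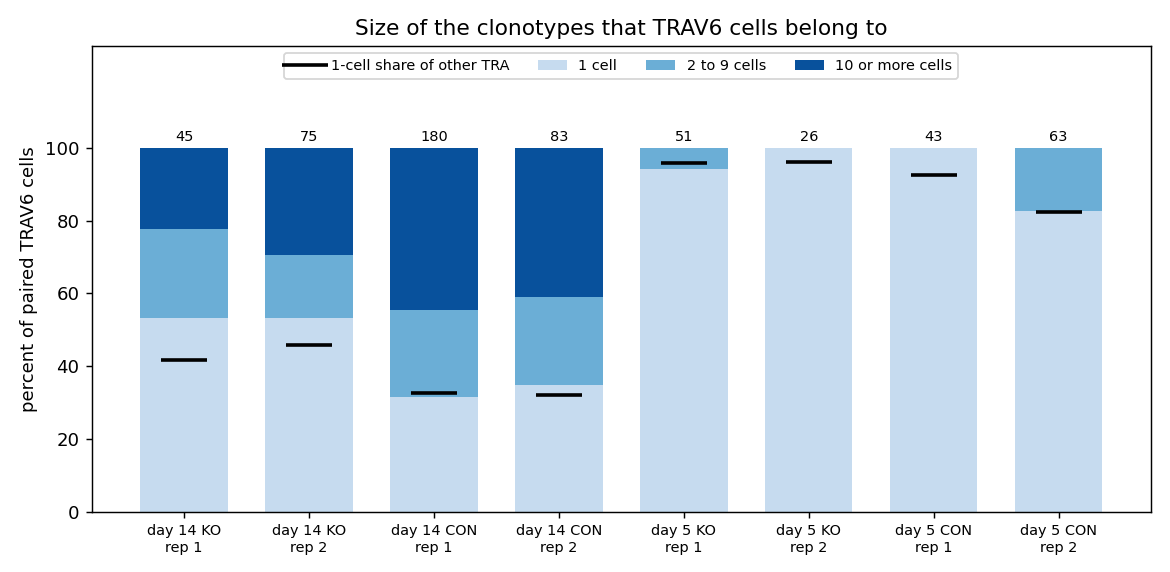
Paired TRAV6 cells of each library divided by the size of their clonotype, with the number of cells above each bar; the black line is the 1-cell share among the other TRA cells of the library without iNKT-type cells. Clonotypes of 2 or more cells hold 46.7% to 68.3% of cells at day 14 and 0% to 17.5% at day 5.

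A few TRAV6 clones were large at day 14. The largest TRAV6 clonotypes were TRAV6-4/TRAJ39 with TRBV17/TRBJ1-1 in day 14 CON replicate 1 (68 cells, 35.8% of its TRAV6 cells) and TRAV6-6/TRAJ43 with TRBV13-1/TRBJ1-1 in day 14 CON replicate 2 (34 cells, 39.5%). Day 14 KO replicate 2 held TRAV6-7-DV9/TRAJ34 with TRBV3/TRBJ1-1 (12 cells), and day 14 KO replicate 1 held TRAV6-6/TRAJ43 with TRBV1/TRBJ2-7 (10 cells). At day 5 the largest had 3 cells in KO replicate 1 and in CON replicate 2, and no clonotype had more than 1 cell in KO replicate 2 and CON replicate 1. Counted as clonotypes, TRAV6-4 was 1.39% and 1.69% in the day 14 KO libraries, 0.92% and 0.59% in the day 14 CON libraries and 0.24% to 1.08% at day 5. Day 14 CON replicate 1 also held clones of 12 and 7 cells, and 10 cells carried TRAV6-6/TRAJ43 with TRBV13-1/TRBJ1-1 in day 14 KO replicate 2. The CDR3 nucleotides of clones named here were as follows, with each alpha chain before its beta chain.
TRAV6-4/TRAJ39: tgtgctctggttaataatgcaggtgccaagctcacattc
TRBV17/TRBJ1-1: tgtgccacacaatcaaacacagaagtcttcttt
TRAV6-7-DV9/TRAJ34: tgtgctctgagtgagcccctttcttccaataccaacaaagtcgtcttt
TRBV3/TRBJ1-1: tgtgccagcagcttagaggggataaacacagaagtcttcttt
TRAV6-6/TRAJ43 of day 14 KO replicate 1: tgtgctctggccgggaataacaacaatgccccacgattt
TRBV1/TRBJ2-7: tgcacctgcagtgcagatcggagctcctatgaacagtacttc
The chains of TRAV6-6/TRAJ43 with TRBV13-1 are given with the shared receptors.

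In these clones the TRAV6 chain was often 1 of 2 productive alpha chains, and the chain with the most UMIs was not always the TRAV6 one. The TRBV17 chain of day 14 CON replicate 1 was in 101 cells. Of these, 92 held the TRAV6-4/TRAJ39 chain, 75 held it together with TRAV16D-DV11/TRAJ40, and TRAV6-4 had the most UMIs in 68. In cells with both chains the median was 9 UMIs for TRAV6-4 and 6 for TRAV16D-DV11.

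The TRBV13-1 chain of day 14 KO replicate 2 was in 86 cells, of which 54 held TRAV6-6/TRAJ43 and 53 held it with TRAV13N-3/TRAJ50. There the median was 4 UMIs for the TRAV6 chain and 7 for TRAV13N-3, and TRAV6 had the most UMIs in 10 cells. The TRBV13-1 chain of day 14 CON replicate 2 was in 150 cells, of which 110 held TRAV6-6/TRAJ43 and 101 held it with TRAV7D-5/TRAJ50, with medians of 4 and 7 UMIs, and TRAV6 had the most in 34. By any chain, TRAV6-6/TRAJ43 was in 9.22% of the TRA cells of day 14 KO replicate 2 and 15.2% of those of day 14 CON replicate 2. The TRBV3 chain of day 14 KO replicate 2 was in 23 cells, 16 with TRAV6-7-DV9/TRAJ34 and 12 with it and TRAV12-2/TRAJ39.

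**Figure D5:**
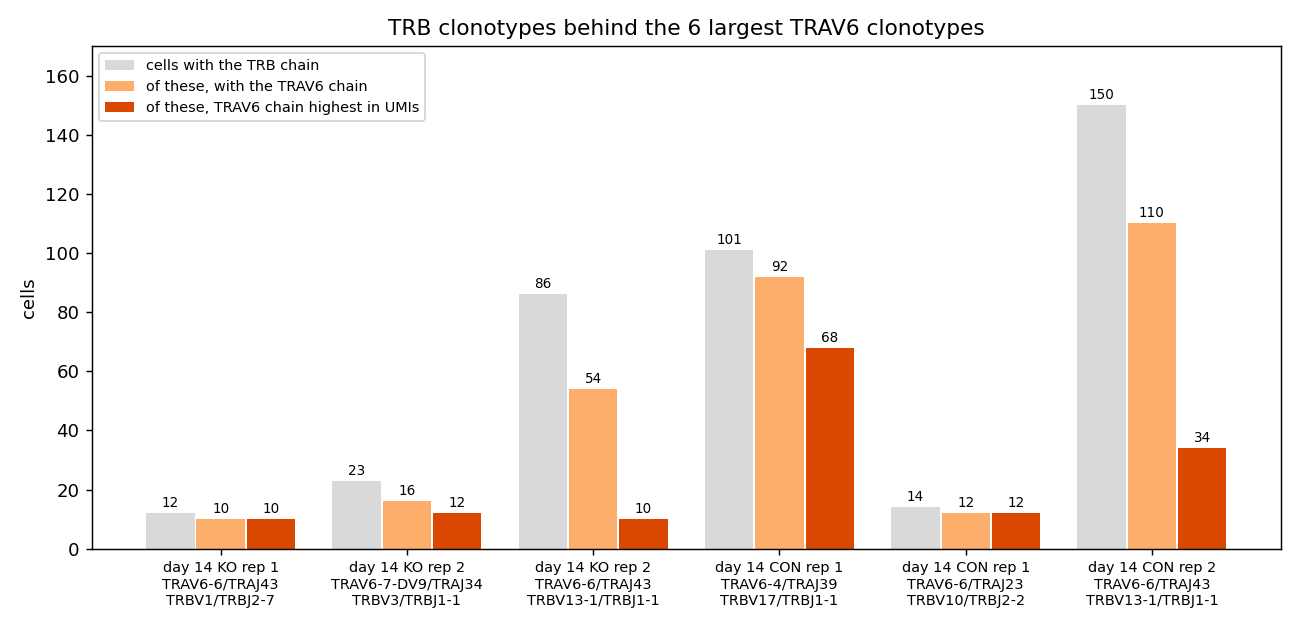
Cells with the TRB chain of each of the 6 largest TRAV6 clonotypes (grey), those that also held the TRAV6 chain (light orange) and those in which it had the most UMIs (dark orange), with KO libraries at the left. In the TRBV13-1 clonotypes 54 of 86 cells (KO replicate 2) and 110 of 150 cells (CON replicate 2) held the TRAV6 chain, and it was the highest in 10 and 34.

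A second productive TRA chain was found in 129 of 586 TRAV6 cells (22.0%), but in 38 of 381 TRAV6 clonotypes. In all, 198 of 784 productive TRAV6 chains were not the highest of their cell. The share of cells with a second chain was 6.25%, 29.9%, 31.1% and 33.7% of TRAV6 cells in the day 14 libraries (KO 1, KO 2, CON 1, CON 2), against 10.6%, 15.6%, 8.85% and 16.9% of the other cells of those libraries. The 3 libraries with the large clones just described were the 3 high ones. Over the 8 libraries the difference was 5.35 points, with TRAV6 higher in 5 of 8 (exact p 0.211, adjusted p 0.338). Without the TRB clonotypes of 50 or more cells that carry a TRAV6 chain it was 0.63 points.

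Some TRAV6 receptors occurred in more than 1 library. At the level of residues of both chains, 3 of 358 TRAV6 receptors were found in 2 or more libraries (0.838%), against 11 of 2185 other receptors without iNKT-type chains (0.503%). All 3 were in day 14 libraries only, and so were all 11 of the others. Of the nucleotide clonotypes, 0 of 363 with TRAV6 and 3 of 2198 without it were shared, so the TRAV6 cells with the same residues had different nucleotides in at least 1 chain.

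The first was TRAV6-6/TRAJ43 with TRBV13-1/TRBJ1-1, the expanded clone above, in day 14 KO replicate 2 and day 14 CON replicate 2. The TRA nucleotides were the same in both, the TRB nucleotides differed, and 1 more cell of day 14 CON replicate 2 had another encoding in both chains. Capitals mark the bases that differ among the 3.
TRA of the KO replicate 2 and CON replicate 2 clones: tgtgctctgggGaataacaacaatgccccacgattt
TRA of the single CON replicate 2 cell: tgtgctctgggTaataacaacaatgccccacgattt
TRB of the KO replicate 2 clone: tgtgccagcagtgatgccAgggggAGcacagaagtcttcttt
TRB of the CON replicate 2 clone: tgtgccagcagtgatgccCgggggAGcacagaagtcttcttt
TRB of the single CON replicate 2 cell: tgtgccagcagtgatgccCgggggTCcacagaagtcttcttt
The partner TRA chains of both clones used TRAJ50 but different V segments, TRAV13N-3 and TRAV7D-5. It was seen in neither day 14 replicate 1 nor any day 5 library.

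The second was TRAV6N-7/TRAJ34 with TRBV19/TRBJ1-3. The TRA residues were found in 5 cells, all at day 14 and in each of the 4 day 14 libraries, and 0 at day 5. All 4 of these cells that had a TRB chain used TRBV19/TRBJ1-3, and 3 of them had the same TRB residues while the fourth differed at 1 residue. No 2 of the 4 had the same bases in both chains, and capitals mark where they differ.
KO replicate 1 TRA: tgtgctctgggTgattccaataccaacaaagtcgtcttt
KO replicate 2 TRA: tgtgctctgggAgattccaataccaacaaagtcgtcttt
KO replicate 1 TRB: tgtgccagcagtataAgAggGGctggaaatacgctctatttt
KO replicate 2 TRB: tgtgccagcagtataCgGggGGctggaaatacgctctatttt
CON replicate 1 TRB: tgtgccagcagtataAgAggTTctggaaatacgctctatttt
CON replicate 2 TRB: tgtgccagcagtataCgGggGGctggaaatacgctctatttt
Both CON cells had the TRA bases of KO replicate 1. The same TRB residues were also found with TRAV14/TRAJ7 in 5 cells, of which 1 was in day 5 KO replicate 2. The chain of KO replicate 1 was also the TRAV6 TRA CDR3 found in most libraries (3), and of 362 distinct TRAV6 CDR3 nucleotide sequences 9 were in 2 or more libraries and 1 in 3.

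The third was TRAV6-6/TRAJ22 with TRBV29/TRBJ2-7, in 2 cells of day 14 KO replicate 2 and 1 cell of day 14 CON replicate 2. The TRB nucleotides were the same and the TRA nucleotides differed at 2 of 48 bases.
KO replicate 2 TRA: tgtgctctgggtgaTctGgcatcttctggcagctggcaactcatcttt
CON replicate 2 TRA: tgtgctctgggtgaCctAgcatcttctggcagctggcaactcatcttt
The 2 other CDR3 sequences of the family found in more than 1 library with the most cells were that of TRAV6-6/TRAJ43 (44 cells, 2 libraries) and TRAV6-7/TRAJ49 (8 cells, 2 libraries, 4 TRB clonotypes). Of these TRB clonotypes, 2 of day 14 CON replicate 1 had the same nucleotides and differed only in name, TRBV12-2+TRBV13-2 against TRBV13-2.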

How the data were processed

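The 8 deposited contig tables hold, per the file headers, a barcode, a cell call, V and J names, CDR3, a clonotype identifier, whole-number counts of UMIs and reads, and other values such as contig length, which were not used. Counts are not normalized. Per the submitters' processing notes the build was GRCm38 (mm10) and the tools were Cell Ranger 3.1.0, CASAVA 1.8, Seurat 4.0.0 and R 4.1.2, each with no role stated. D, N and DV were removed from names to form members. Possible doublets (2 or more TRB or 3 or more TRA chains) were kept.

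Cell counts for each segment were tested by quasi-likelihood F tests in edgeR 4.0.16 under R 4.3.3 (offset log of the library's TRA or TRB cells, all 8 libraries). DESeq2 1.42.0 was an alternative. In 5 simulated data sets of 98 segments for each contrast, 8-fold changes were called for 48 of 50 segments between days, 48 of 50 for genotype over both days, 41 of 50 at day 14, 31 of 50 at day 5 and 20 of 50 for the change of the KO effect. Changes of 2-fold were called for 9, 10, 2, 3 and 0 of 50.

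The family share was given no test. Positions and names came from RefSeq (GRCm38.p6), where all 15 TRAV6 names matched. The members, lists and alternatives were chosen with earlier results of these data known. Named are all members, the 3 most frequent partners of the family and of members with 50 or more clonotypes, the largest clonotype of each day 14 library, shared receptors, the 3 CDR3 sequences in most libraries and the 3 most similar segments. The copy comparison, TRBV19 and second chains were singled out after their values were seen. RNA libraries were not analysed here.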

Additional observations from a re-analysis of the deposited data

Results flagged for a closer look

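Of 24 groups of values examined for a library far from the others, of which chance alone flags about 1 in 20, 2 were picked out. TRAV6-4 in day 14 CON replicate 1 was 5.83% of TRA cells, and its gap to the next library was 0.856 of the range of the 4 day 14 libraries, past the 95% critical value of Dixon's test. TRAV6-7 in day 14 KO replicate 2 was 5.12%, with a gap of 0.885 of the range.

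Nonproductive contigs were not used in any comparison. TRAV6 made up 19.3% of the nonproductive TRAV contigs of cells (333 of 1729), against 11.9% of TRA cells by their highest productive chain and 14.3% of all productive TRA chains (784 of 5498). The nonproductive share was higher than that of all productive chains in 7 of 8 libraries, and higher than that of cells without iNKT-type chains in 7 of 8 libraries. The nonproductive share was 17.5% without day 14 CON replicate 1, which held 105 of the contigs. TRAV6D-7, with 0 productive cells, was named in 20 of them, in 5 libraries.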

How the results depend on the processing

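The number of TRAV6 members called stayed at 0 in every contrast and alternative, except 1 (TRAV6-4) for day 14 against day 5 without day 14 CON replicate 2. Leave-one-out counts thus ranged from 0 to 1. Over all segments, alternatives called 2 to 13 for the days, against 10, and up to 5 for genotype at day 14. Replicate numbers correlated at -0.12 to 0.07 between groups and share only a number. With the replicate block 7 segments passed between days, 0 TRAV6 members passed, and the share difference at day 14 was -2.28 points as without it.

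The day difference of the TRAV6 share (2.78 points) was -0.62 without iNKT-type cells and 7.39 with every productive chain. Without the TRB clonotypes of 50 or more cells that carry TRAV6, chosen after seeing the data, the KO difference at day 14 was 1.59 and its change between days 1.70. Kept among the others, iNKT-type cells turned round the CDR3 length (-0.017), TRBV13 (-7.21) and TRAJ40 (4.03) differences. Cells in place of clonotypes gave 2.96 for TRAJ40 and -6.56 for Jbeta2, which was -2.35 with chains of 2 or more UMIs and -0.022 without possible doublets. TRBV13 kept its sign, at 4.42 with cells (adjusted p 0.281) and 3.18 with chains of 2 or more UMIs (adjusted p 0.266, both by the exact permutation test). CDR3 length with cells was 0.13 residues (adjusted p 0.402, same test). With each library left out in turn, Jbeta2 ranged from -0.41 to 0.90, TRAJ21 or lower from -3.05 to 0.36 and TRAJ40 or higher from -3.27 to 1.26.

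Log2 fold changes of members that changed sign, none called, were TRAV6-4 at day 14 between genotypes with each clonotype counted once (0.95) and without the largest TRB clonotypes (1.47), TRAV6-5 between days without iNKT-type cells (-0.12), and TRAV6-7 with each clonotype counted once (-0.11 at day 14 between genotypes, 0.38 between days) and without the largest TRB clonotypes (0.029 between days). With each library left out, ranges that crossed 0 at day 14 between genotypes were -2.37 to 1.37 (TRAV6-4), -0.31 to 1.27 (TRAV6-5) and -0.18 to 1.17 (TRAV6-7). At day 5 they were -0.14 to 0.95 (TRAV6-5), -0.88 to 0.32 (TRAV6-6) and -0.14 to 0.19 (TRAV6-7). Between days they were -0.12 to 0.57 (TRAV6-5) and -0.54 to 0.013 (TRAV6-7). The other 206 of 224 alternatives of member fold changes kept direction and side of the threshold. The causes were not tested.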
